A study of Mus musculus with 77 samples.

Results

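The Hox genes of clusters A to D were examined as 1 group, 38 genes taken by symbol out of 34328 protein-coding and long non-coding RefSeq genes. HoxA gave 10 members, HoxB 10, HoxC 9 and HoxD 9. The rule that chose them used no measured value, but earlier results of these data were known when it was set. For each gene, peaks were read over a window that holds the gene body and the 2 kb on either side, and most windows touch a neighbour's window. A single wide peak often spans many members, so the members share signal and are not independent measurements.

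Hox genes encode homeodomain transcription factors that give cells their position along the body axis. They lie in order in their clusters: genes at the 3′ end act in the head and neck, and genes at the 5′ end act in the trunk, limbs and tail region. Polycomb complexes keep Hox genes silent where they are not needed. One complex (PRC1) places ubiquitin on histone H2A (H2AK119Ub) and the other (PRC2) trimethylates histone H3 (H3K27me3), while H3K27ac marks active promoters and enhancers on the same H3 residue. In blood, early progenitors use some HoxA and HoxB genes, and most Hox genes are switched off as cells mature.

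The cells were CD23+ B cells from the spleen of female mice, profiled by CUT&RUN, a method that frees the DNA of marked nucleosomes with an antibody-bound nuclease. All mb1-cre groups carried mb1-cre, an in vivo deleter of the B lineage: the labels give their genotypes as WT (mb1-cre+) and as Xist fl/fl ; mb1-cre+. The TAT-Cre groups came from mice labelled WT or Xist fl/fl. Their cells received 80 µg of cell-permeant Cre for 45 min before culture, so that the 0 h cells of this system had not met Cre. A change from 0 h to 24 h in the TAT-Cre system is thus one of CpG, culture and TAT-Cre, which cannot be told apart. Cells were taken without stimulation (0 h) or after 24 h of culture in 1 µM CpG, which engages Toll-like receptor 9. The sources used here give no mouse ages. The 77 libraries form 24 groups: 3 libraries per group for H2AK119Ub and H3K27ac, and 3 to 5 for H3K27me3. The titles number them as biological replicates, and no label ties a number to a mouse or to a day.

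One list of peaks per library was analysed, and sequencing depth is unknown. H3K27me3 lists held 1955 to 19074 peaks, H2AK119Ub lists 2004 to 40688 and H3K27ac lists 1336 to 10393. The median H2AK119Ub list was longer at 24 h than at 0 h, 25206 against 17796.5 peaks, and 4 of the 12 lists at 0 h held fewer than 3000. A longer list leaves a smaller share of its signal to any 1 gene, so signal shares and covered shares are both given. The B cell label was met: all 14 B cell marker genes examined, among them Cd79a and Pax5, had an H3K27ac peak in all 24 libraries and an H3K27me3 peak in none. Of the T cell, myeloid, NK cell, erythroid and stromal lists, no library had H3K27ac peaks at more than 28.6% of the genes of a list.

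Promoter sequences of 6 members are given, to set wholly covered genes beside genes with low or changing cover. The first 3, Hoxa9, Hoxb8 and Hoxd12, belong to members that were wholly covered by H3K27me3 in every library. Hoxa5 and Hoxb4 had the lowest H3K27me3 cover of their clusters, and Hoxd1 gained H2AK119Ub peaks after CpG. These last 3 were chosen after their values were seen. Each run is the 250 bases before the start site of 1 RefSeq transcript (GRCm38.p6), read 5′ to 3′ on the gene's strand, with every CG pair in capitals.
Hoxa9, chr6:52227371-52227620, minus strand: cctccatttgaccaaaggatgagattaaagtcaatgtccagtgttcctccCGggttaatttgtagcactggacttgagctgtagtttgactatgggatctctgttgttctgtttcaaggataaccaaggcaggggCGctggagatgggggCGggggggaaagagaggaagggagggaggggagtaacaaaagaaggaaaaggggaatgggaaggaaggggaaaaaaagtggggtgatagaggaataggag
Hoxb8, chr11:96281655-96281904, plus strand: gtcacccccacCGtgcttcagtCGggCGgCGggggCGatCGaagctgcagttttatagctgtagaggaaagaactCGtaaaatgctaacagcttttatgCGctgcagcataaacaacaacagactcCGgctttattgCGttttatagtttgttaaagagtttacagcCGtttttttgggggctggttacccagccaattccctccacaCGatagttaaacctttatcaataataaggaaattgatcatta
Hoxd12, chr2:74674763-74675012, plus strand: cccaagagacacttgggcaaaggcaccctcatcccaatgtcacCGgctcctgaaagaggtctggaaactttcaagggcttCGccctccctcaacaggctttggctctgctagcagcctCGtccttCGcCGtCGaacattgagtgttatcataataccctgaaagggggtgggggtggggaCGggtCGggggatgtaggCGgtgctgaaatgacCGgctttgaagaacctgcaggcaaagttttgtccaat
Hoxa5, chr6:52204588-52204837, minus strand: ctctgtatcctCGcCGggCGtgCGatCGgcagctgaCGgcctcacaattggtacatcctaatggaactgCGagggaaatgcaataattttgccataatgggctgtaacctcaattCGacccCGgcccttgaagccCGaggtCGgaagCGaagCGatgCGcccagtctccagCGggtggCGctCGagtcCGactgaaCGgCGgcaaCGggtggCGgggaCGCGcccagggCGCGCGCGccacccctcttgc
Hoxb4, chr11:96318017-96318266, plus strand: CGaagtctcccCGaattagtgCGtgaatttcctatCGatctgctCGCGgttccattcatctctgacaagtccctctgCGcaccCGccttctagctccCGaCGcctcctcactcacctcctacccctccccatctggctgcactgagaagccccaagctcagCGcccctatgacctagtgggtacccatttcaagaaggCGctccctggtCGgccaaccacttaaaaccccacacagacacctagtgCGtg
Hoxd1, chr2:74762730-74762979, plus strand: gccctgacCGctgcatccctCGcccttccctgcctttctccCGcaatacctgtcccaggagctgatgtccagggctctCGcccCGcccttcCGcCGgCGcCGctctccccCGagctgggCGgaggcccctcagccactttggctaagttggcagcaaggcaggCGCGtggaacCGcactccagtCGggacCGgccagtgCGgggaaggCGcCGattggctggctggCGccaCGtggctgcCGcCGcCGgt

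The CG pair was searched as the letters CG, which read the same on both strands. The Hoxa9 run held 3 CG pairs, Hoxd12 held 10, Hoxb8 held 12, Hoxb4 held 14, Hoxd1 held 24 and Hoxa5 held 28. Over 32851 promoters of this length in the same table the median was 6, and 92.1% held at least 1. Entries were found for 22 of the 38 members (24 start sites), with a median of 12.5 CG pairs and a range of 2 to 35.

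A library was counted for a promoter when 1 peak covered all 250 bases. The Hoxa9, Hoxb8 and Hoxd12 promoters were covered by H3K27me3 in 15 of 15 libraries at 0 h and 14 of 14 at 24 h, and by H2AK119Ub in 12 of 12 at either time. Hoxa5 was covered by H3K27me3 in 5 of 15 and 5 of 14, and Hoxb4 in 14 of 15 and 10 of 14. The Hoxd1 promoter was covered by H3K27me3 in 12 of 15 and 14 of 14, and by H2AK119Ub in 0 of 12 at 0 h and 9 of 12 at 24 h. No H3K27ac peak covered any of the 24 start sites. The other starts that lacked H3K27me3 in 3 or more libraries at 0 h were those of Hoxa13 (35 CG pairs, 11 of 15), Hoxd13 (31, 12 of 15), the inner start of Hoxd11 (20, 10 of 15) and Hoxa2 (6, 12 of 15). Starts rich in CG pairs were also covered in 15 of 15 and 14 of 14 libraries: those of Hoxa6 (24), Hoxd10 (20), Hoxa3 (18) and the inner start of Hoxa10 (20). A link between CG pairs and cover was not tested.

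H3K27me3 lay over nearly all Hox genes in every group. Of 1102 pairs of a member and a library, 1097 had a peak, and 35 of the 38 members had one in all 29 libraries (5.11% of all genes did). The 3 others were Hoxa4, Hoxa5 and Hoxb4, each without a peak in 1 or 2 libraries. The whole window was under peaks in 79.2% of pairs, and for 17 members it was so in all 29 libraries (0.271% of all genes). Averaged over the members, the covered share was 95.2% ± 1.78 (SD, n = 4) in unstimulated mb1-cre WT cells and 96.3% ± 2.59 (n = 4) at 24 h. It was 89.1% ± 1.06 (n = 3) in TAT-Cre WT cells at 0 h and 89.5% ± 4.34 (n = 3) at 24 h. The mean over all protein-coding genes was between 5.17% and 12.1% in the 8 groups.

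HoxC had the most even cover. Its span of 120 kb, from 2 kb before the first member to 2 kb after the last, was 97.5% to 100% under H3K27me3 peaks, and in 21 of 29 libraries 1 peak covered all that was covered. The widest peak over HoxC was the widest of its list in 25 of the 29 libraries, with a median width of 240 kb. Of its 9 members, 7 were wholly covered in all libraries: Hoxc4, which others have linked to the deaminase AID in B cells, Hoxc5, Hoxc6, Hoxc8 to Hoxc10 of the thoracic and lumbar region, and Hoxc11. Hoxc13, a gene of hair and nail, was lowest at 97.7% (mean of the 8 groups). HoxD was 91.0% to 100% covered (median 100%), with Hoxd12, a limb gene, wholly covered in every library and Hoxd8 lowest at 93.3%.

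HoxA and HoxB each held a stretch with little H3K27me3. HoxA was 60.6% to 100% covered (median 82.3%) and HoxB 68.8% to 100% (median 86.6%). A library was counted for a 1 kb bin when peaks covered at least 50% of the bin. In HoxA, fewer than 50% of the libraries were counted in the bins from 40 to 45 kb after the start of the span, at either time. Hoxa5 lies there (41.3 to 44.2 kb). A second low stretch, from about 9 to 21 kb, lay inside the long Hoxa3 gene, an organiser of the thymus and parathyroid. In HoxB the low stretch ran from 127 to 142 kb, across the 3′ part of Hoxb4 and the body of Hoxb3. The remaining HoxA and HoxB genes from Hoxa7 to Hoxa11 and from Hoxb5 to Hoxb8, and Hoxb2 and Hoxb13 with them, had at least 95.4% of their windows covered in every library. By the same rule for bins, H2AK119Ub was low in HoxA from 7 to 25 kb at 0 h. At 24 h it was low there from 9 to 12 kb and from 15 to 16 kb. It was not low from 40 to 45 kb, at Hoxa5, at either time. Across the HoxB stretch it was low from 132 to 154 kb at 0 h and from 132 to 143 kb at 24 h.

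**Figure D1:**
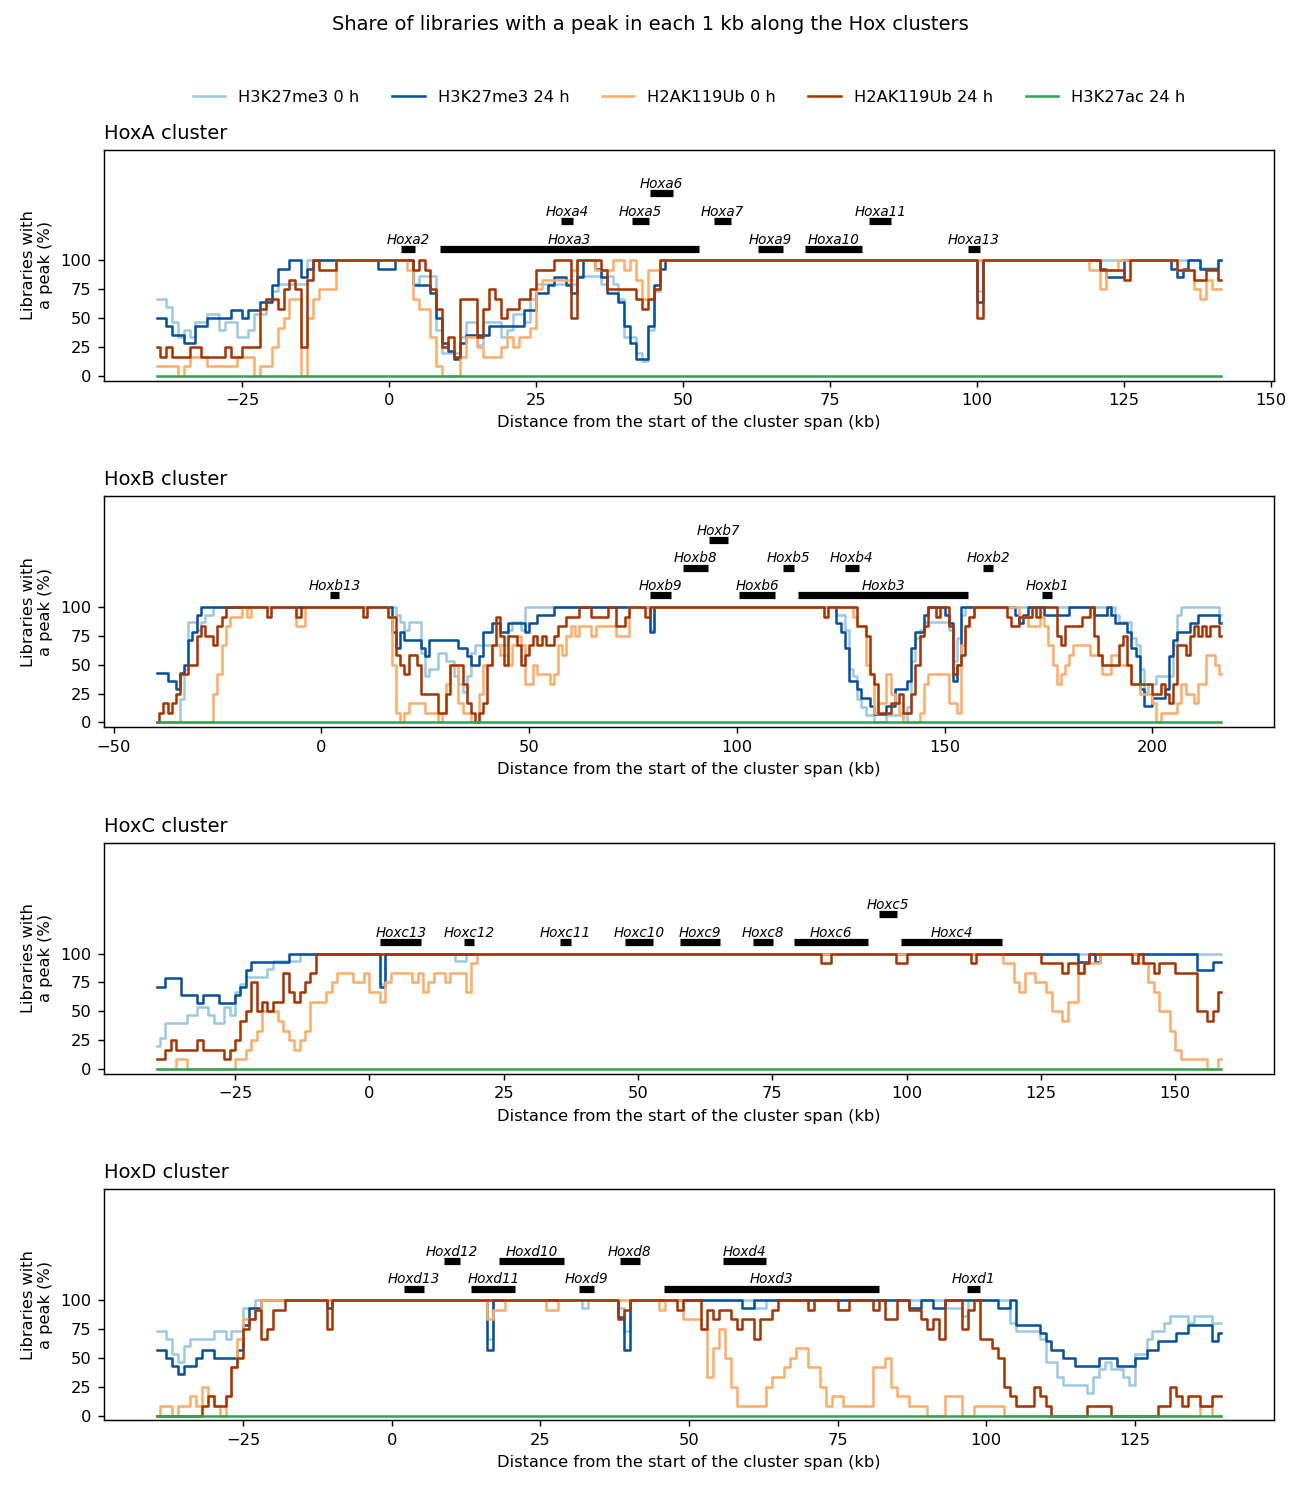
Share of libraries (%) with a peak in each 1 kb bin along the 4 clusters, against distance from the start of the span (kb), for H3K27me3 and H2AK119Ub at 0 h and 24 h and H3K27ac at 24 h; black bars are the genes. H3K27ac is at 0 throughout, H3K27me3 dips at Hoxa5 and Hoxb4, and H2AK119Ub in the right part of HoxD (from about 57 kb) is low at 0 h and high at 24 h.

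Hoxa5, which shapes the lung and the mammary gland, had the lowest H3K27me3 cover of all members, 37.5% (mean of the 8 groups). In mb1-cre WT cells its window was covered by 11.2%, 65.7%, 37.6% and 70.8% at 0 h and by 54.8%, 100%, 29.4% and 65.2% at 24 h. In mb1-cre Xist fl/fl cells the values were 36.4%, 5.33%, 11.6%, 100% and 100% at 0 h and 39.0%, 22.0%, 25.7% and 100% at 24 h. In the TAT-Cre system they ran from 0% to 59.0% over 12 libraries. Times and genotypes overlapped in both systems. Its H2AK119Ub cover was higher, 41.8% to 100% at 0 h (median 100%) and 3.80% to 100% at 24 h (median 73.7%).

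Hoxb4, a gene of blood stem cells, had the second lowest H3K27me3 cover, 47.0% (mean of the 8 groups). The mb1-cre WT libraries gave 40.7%, 31.3%, 94.0% and 75.2% at 0 h and 45.9%, 85.4%, 32.6% and 100% at 24 h. The 12 TAT-Cre libraries lay between 0% and 36.6%. The mb1-cre libraries reached higher, but their lowest value, 8.34%, lay within the TAT-Cre range. H2AK119Ub covered 69.4% to 100% of the Hoxb4 window in all 24 libraries. Within this window, the gap in H3K27me3 was thus not a gap in H2AK119Ub. Past the window, the low HoxB stretch from 132 to 142 kb was low in both marks at both times.

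Hoxa4 had H3K27me3 over its whole window in 16 of the 17 mb1-cre libraries and over none of it in the other, Xist fl/fl 0 h replicate 1, whose list of 1955 peaks was the shortest of the mark. In the TAT-Cre system the cover of Hoxa4 ran from 0% to 87.2%, so that no TAT-Cre library reached the value of the 16. List lengths differed between the systems as well: mb1-cre lists held 1955 to 7117 peaks at 0 h and 7972 to 15150 at 24 h, and TAT-Cre lists 2017 to 19074 and 3981 to 10179. The part of list length in this difference was not tested.

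H2AK119Ub covered the Hox genes about as widely as H3K27me3 at 24 h, and its group means were lower at 0 h. A peak was present in 899 of 912 pairs, and 35 of 38 members had one in all 24 libraries (4.86% of all genes did). The whole window was covered in all libraries for 14 members (0.233% of all genes). The mean covered share went from 91.4% ± 3.13 to 98.2% ± 1.15 in mb1-cre WT cells and from 88.4% ± 3.27 to 94.7% ± 3.27 in mb1-cre Xist fl/fl cells (SD, n = 3 each). It went from 88.3% ± 3.38 to 93.6% ± 1.38 in TAT-Cre WT cells and from 85.5% ± 5.46 to 95.3% ± 3.05 in TAT-Cre Xist fl/fl cells (n = 3 each). A mean over members was given no test. The lowest members of each cluster were Hoxa3 (71.1%), Hoxb3 (65.0%), Hoxc13 (86.9%) and Hoxd1 (45.8%).

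In HoxD the cover at 0 h was low over the 3′ part, from Hoxd3 to Hoxd1. The HoxD span was covered by H2AK119Ub for 50.4% to 82.9% in the 12 libraries at 0 h and for 85.1% to 100% in the 12 at 24 h, without overlap. Among single gene windows, 1.05% of 34328 had every library at 24 h above every library at 0 h. Spans of this length were not counted over the genome. In bulk libraries, more cells with a mark and more of the mark per cell cannot be told apart. By the rule for bins given above, at least 50% of the libraries were counted in 60 of the 101 HoxD bins at 0 h, against all 101 at 24 h. The bins missing at 0 h began at 53 kb, within Hoxd3, and ran with few breaks to the end of the span. For H3K27me3, at least 50% of the libraries were counted in all 101 bins at either time.

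Hoxd1, the most 3′ gene of its cluster and a gene of sensory neurons, had an H2AK119Ub peak in 2 of 12 libraries at 0 h and in 12 of 12 at 24 h. At 0 h the covered share was 0%, 56.1% and 0% in mb1-cre WT cells, 0% in all 3 mb1-cre Xist fl/fl libraries, 0%, 0% and 20.0% in TAT-Cre WT cells, and 0% in all 3 TAT-Cre Xist fl/fl libraries. At 24 h it was 100%, 91.7% and 82.0% in mb1-cre WT cells, and in their Xist fl/fl counterparts 73.5%, 100% and 100%. The TAT-Cre system gave 87.6%, 100% and 45.3% in WT cells and 88.7%, 72.4% and 81.4% in Xist fl/fl cells. Within each system and genotype all libraries at 24 h lay above all at 0 h.

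The signal share of Hoxd1, as parts in 1000000 of the autosomal peak signal of the same list (ppm), was 0 to 10.8 at 0 h and 27.4 to 106 at 24 h. An exact stratified two-sided test of peak presence gave p = 0.0002 and an adjusted p of 0.00688 over 18097 genes. Of these genes, 11.1% were called higher at 24 h and 0.16% lower. Since Hoxd1 had a peak in only 2 libraries at 0 h, it entered this test through its libraries at 24 h. The p is thus tied to the values that let the gene in, and is not read as separate support. The H3K27me3 of Hoxd1 was present in all 29 libraries, over 59.1% to 100% of the window at 0 h and 92.0% to 100% at 24 h.

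Hoxd3, which acts in the upper vertebrae, was covered by H2AK119Ub for 21.3% to 78.4% at 0 h (median 39.1%) and 65.9% to 100% at 24 h (median 95.9%). Only 1 library at 0 h, mb1-cre WT replicate 2, lay above the lowest of 24 h. Within each of the 4 strata of system and genotype the times did not overlap for Hoxd1 and Hoxd3, as held for 1.99% of all genes in the direction of higher cover. No member was lower at 24 h in all 4 strata, which held for 0.122% of all genes. No member had H3K27me3 cover without overlap in all 4 strata, against 0.0% of genes higher and 0.00291% lower.

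Hoxd4, a gene of the hindbrain and neck vertebrae, had H2AK119Ub over 20.5%, 76.3% and 0% of its window at 0 h and 100%, 100% and 100% at 24 h in mb1-cre WT cells. In mb1-cre Xist fl/fl cells the values were 39.6%, 29.3% and 24.0%, then 92.7%, 58.3% and 100%. TAT-Cre WT cells gave 24.7%, 0% and 44.3%, then 89.6%, 3.87% and 76.6%, and TAT-Cre Xist fl/fl cells 20.7%, 26.6% and 18.5%, then 93.9%, 100% and 100%. The times overlapped in TAT-Cre WT cells only, through replicate 2 at 24 h. H3K27me3 covered 75.8% to 100% of Hoxd4 in all 29 libraries.

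**Figure D2:**
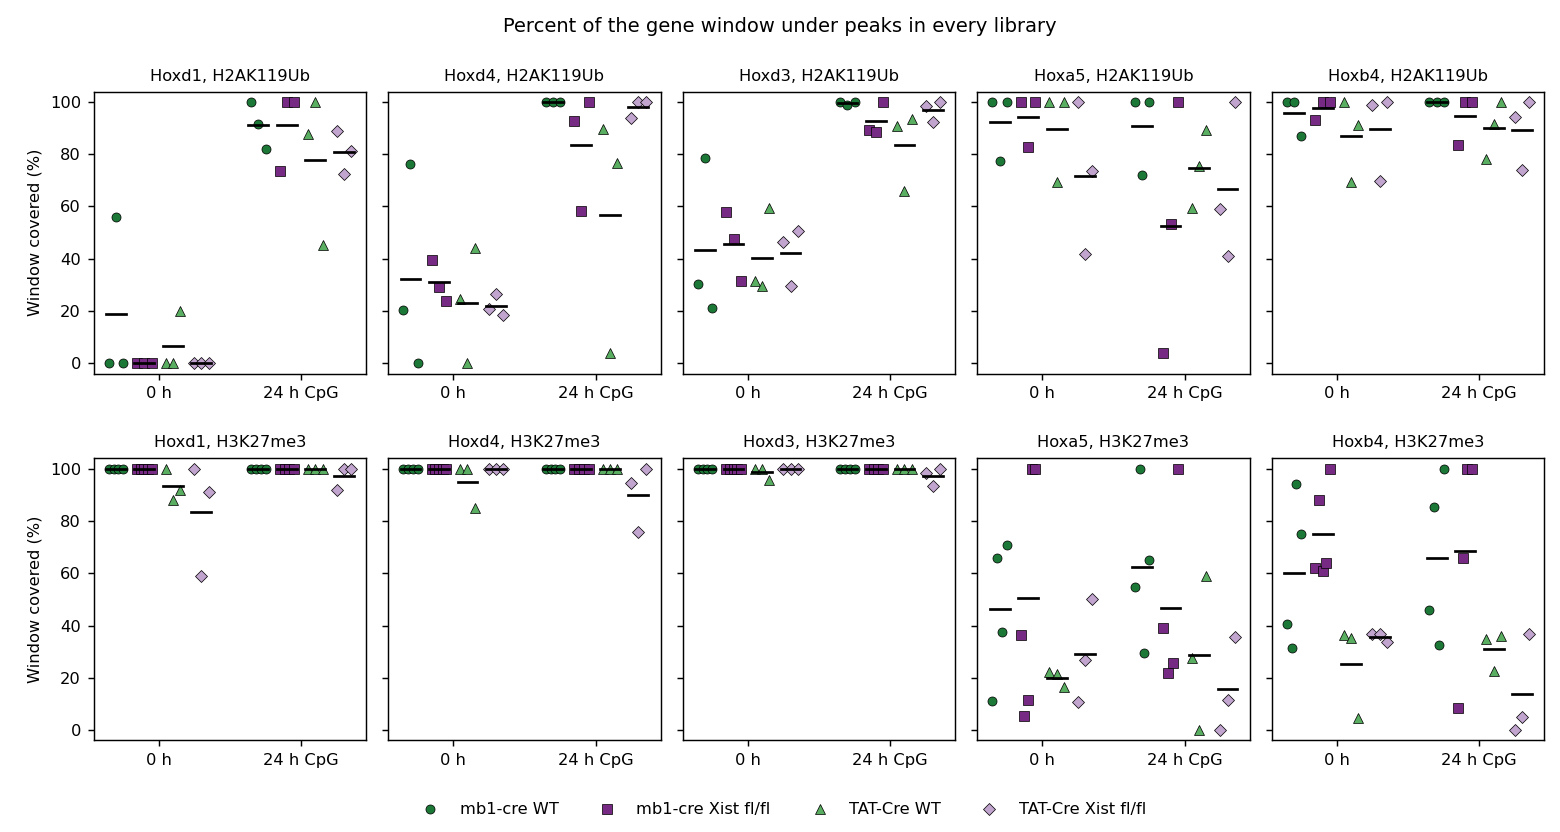
Percent of the window under peaks in every library (points; colour and shape give system and genotype; bars are group means) at 0 h and 24 h, for H2AK119Ub (top) and H3K27me3 (bottom). H2AK119Ub at Hoxd1 goes from 0% in 10 of 12 libraries to 45.3% or more in all 12, while Hoxa5 and Hoxb4 show a wide spread of H3K27me3 at both times.

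The microRNA gene Mir10b lies within this part of HoxD, inside the Hoxd4 record. Mir10a lies in HoxB, inside the Hoxb3 record and in the Hoxb4 window. The mature forms are shown because the 2 genes share a seed (bases 2 to 8, in capitals) and their H2AK119Ub values, which were not compared by a test, were unlike. The sequences are from RefSeq (GRCm38.p6), and both genes were chosen after their values were seen.
miR-10a-5p, chr11:96317186-96317208, plus strand: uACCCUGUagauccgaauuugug
miR-10b-5p, chr2:74726074-74726096, plus strand: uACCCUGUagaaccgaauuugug

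Mir10a had H2AK119Ub in 24 of 24 libraries. Mir10b had it in 3 of 12 at 0 h and 11 of 12 at 24 h, with a mean covered share of 8.84% and 79.1%. H3K27me3 was present at either gene in all 29 libraries. Mir10b overlaps the Hoxd4 window, so its change is not a separate one. Mir10a overlaps the windows of Hoxb3 and Hoxb4, so its values are not separate from theirs.

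H3K27ac was found at no Hox gene. All 912 pairs of a member and a library lacked a peak, and 38 of 38 members lacked one in all 24 libraries, as did 65.6% of all genes. A list holds only regions past the peak caller's threshold, so a gene without a peak may still carry some signal. The nearest H3K27ac peaks lay outside the clusters. The closest in any library was 147 kb from HoxA, 115 kb from HoxB, 194 kb from HoxC and 752 kb from HoxD. No limma or exact test could be run on the members for this mark.

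Signal shares were compared between 24 h and 0 h with limma on log2(ppm + 1) across all genes that had a peak in 3 or more libraries of the mark. For H3K27me3, 0 of 38 members passed an adjusted p of 0.05 in the comparison pooled over the 4 strata. An unadjusted p under 0.05 was found for 0 members and for 2064 of all genes tested. Of 11663 genes tested, 2.86% were called higher and 0.497% lower. The members' median change was -0.10 on the log2 scale, against 0.35 for all genes tested. The smallest p was that of Hoxb4 (-0.79 ± 0.509 SE, adjusted p = 0.432). The highest estimate was that of Hoxa4 (0.63 ± 0.637 SE, adjusted p = 0.653), which went to -0.12 without the 3 lists under 3000 peaks. The exact test of presence covered no member, since too few libraries lacked a peak. On simulated data this fit recovered 15% of genes changed by 1 on the log2 scale and 45% of those changed by 2. The changed genes were drawn at random from all genes tested. Changes of this size could be missed, but how often at the Hox members was not simulated.

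H2AK119Ub signal moved in both directions. Pooled over the strata, 3 members were higher at 24 h (38.4% of 20695 genes were) and 29 were lower (5.93% of genes were). The members' median was -0.75 and that of all genes 1.28. The higher ones were Hoxd1 (5.13 ± 0.587 SE, adjusted p = 5.27e-07), Hoxd4 (2.04 ± 0.733, adjusted p = 0.027) and Hoxd3 (0.65 ± 0.163, adjusted p = 0.00284). Relative to the median of all genes, Hoxd1 lay 3.85 above, Hoxd4 0.76 above and Hoxd3 0.63 below it, at -0.63. The Hoxd1 estimate and its p rest on a pseudocount of 1 ppm, since most libraries at 0 h are listed at 0. The estimate was 7.90 with 0.1 ppm and 2.44 with 10 ppm. With a peak in 2 libraries at 0 h, Hoxd1 passed the filter of 3 libraries only through those at 24 h. Hoxd4 lost its call in 6 of 34 alternatives, among them the fits without mb1-cre WT 0 h replicate 3, TAT-Cre WT 0 h replicate 2 or TAT-Cre WT 24 h replicate 3 (adjusted p = 0.0561, 0.0504 and 0.0514 by limma).

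Among the 29 lower members were 9 of 10 HoxA genes, all but Hoxa2. The smallest p was that of Hoxa10, which acts in the uterus and the hind limb. Its signal share was 732, 263 and 577 ppm at 0 h and 199, 208 and 182 ppm at 24 h in mb1-cre WT cells. In mb1-cre Xist fl/fl cells it was 459, 387 and 882 ppm, then 312, 239 and 301 ppm. In the TAT-Cre system it went from 796, 439 and 310 to 198, 244 and 238 ppm in WT cells and from 348, 693 and 355 to 202, 263 and 139 ppm in Xist fl/fl cells. All libraries at 24 h lay below all at 0 h within each stratum. How many of all genes did so in signal share was not counted. The change at Hoxa10 was -1.12 ± 0.189 SE (adjusted p = 7.14e-05 by limma).

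The 5 members with the next smallest p were Hoxa9, a gene of blood progenitors and leukaemia (-1.12), Hoxa11 (-1.12), Hoxa6 (-1.23), Hoxa3 (-0.94) and Hoxa7 (-1.11), with adjusted p from 0.000242 to 0.000401 by limma. Wide peaks ran across several of these genes, so their values share signal. The 6 members without a call were Hoxa2 and Hoxb1, genes of the hindbrain, and Hoxb2, Hoxb13, Hoxc12 and Hoxc13. The windows of Hoxa7, Hoxa9, Hoxa10 and Hoxa11 were fully covered in all 24 libraries, so the fall in their share was not one of cover. A share falls with less signal at the gene or with more signal in the rest of the list. The part of either was not tested.

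The 4 lists under 3000 peaks, all at 0 h, held 577 to 882 ppm at Hoxa10 and the other 8 at 0 h held 263 to 693. The longest list at 0 h, with 40688 peaks, held 263 ppm, and the shortest at 24 h, with 9334, held 301 ppm. Without those 4 lists, 4 members were higher and 12 lower (20.0% and 7.49% of genes), and with all lists cut to 2004 peaks, 6 were higher and 7 lower (28.6% and 18.7%). In the percent covered, 7 were higher (Hoxa2, Hoxb1, Hoxb3, Hoxc13, Hoxd1, Hoxd3 and Hoxd4) and 1 lower (Hoxa13), where 34.0% and 2.39% of genes were. Hoxb3 was among the 29 with a lower signal share (-0.54, adjusted p = 0.00941), so its call turned round. Hoxa10 kept its call in the first 2 of these. Hoxd1 and Hoxd3 kept their direction and call in all 34 alternatives.

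**Figure D3:**
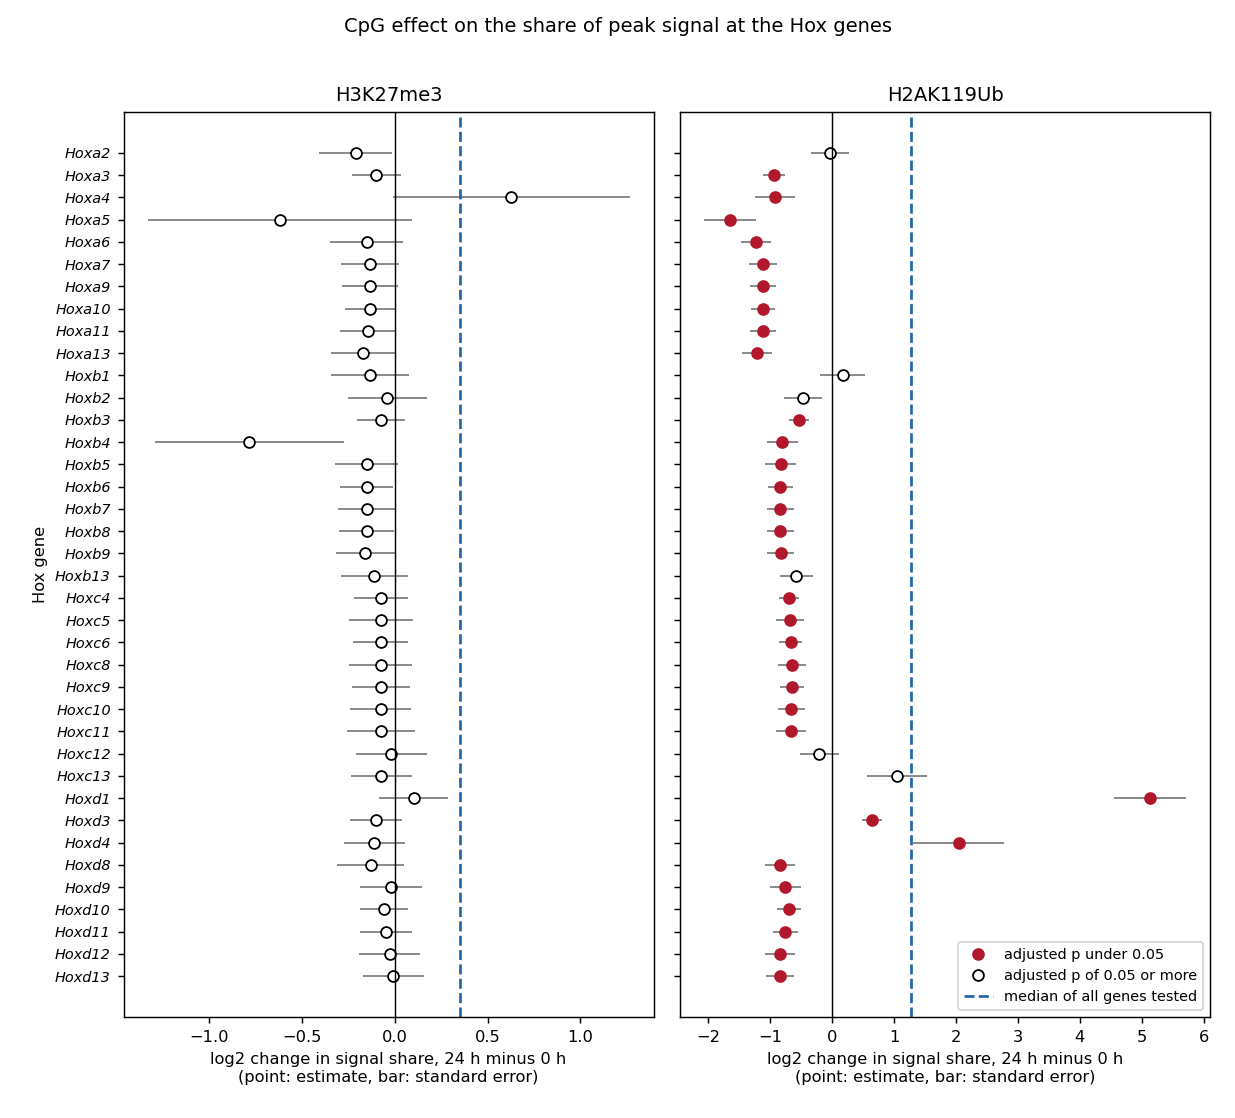
Change in signal share between 24 h and 0 h for each Hox gene (point, log2 scale; bar, standard error) for H3K27me3 (left) and H2AK119Ub (right); filled points have an adjusted p under 0.05 by limma and the dashed line is the median of all genes tested. No H3K27me3 point is filled, and for H2AK119Ub 29 filled points lie left of 0 while Hoxd1, Hoxd3 and Hoxd4 lie right of it.

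Within single strata, 11.8% of genes were called higher in H2AK119Ub in mb1-cre WT cells, 4.01% in mb1-cre Xist fl/fl, 6.9% in TAT-Cre WT and 4.06% in TAT-Cre Xist fl/fl cells. Hoxd1 was called in all 4, with estimates from 4.36 to 6.11 and adjusted p from 0.0026 to 0.0248 by limma. These estimates and p-values rest on the pseudocount of 1 ppm, since most libraries at 0 h are listed at 0. Hoxd1 entered the fit only through its libraries at 24 h. Hoxc13 was called higher in mb1-cre Xist fl/fl cells (3.53 ± 0.979 SE, adjusted p = 0.0331), where 1 library at 0 h, replicate 3, was listed at 0. The calls lower in 1 stratum were Hoxa9, Hoxa10, Hoxa11 and Hoxd10 in mb1-cre WT cells (1.59% of genes) and Hoxa5 in mb1-cre Xist fl/fl cells (1.22%). No member was called lower in the TAT-Cre system, where 0.831% and 0.633% of genes were. The difference in CpG effect between TAT-Cre WT and mb1-cre WT cells was past the threshold for 0 members and for 0.0% of genes. An unadjusted p under 0.05 was found for 0 members and for 620 of 20695 genes.

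For H3K27me3, that difference between systems was tested too, and the 24 h cells of the TAT-Cre system had also met TAT-Cre. In mb1-cre WT cells the members' median change was -0.54 and in TAT-Cre WT cells 0.70, while the medians of all genes were 1.07 and -0.24. In either system alone 0 members were called. An unadjusted p under 0.05 was found for 8 of 38 members in mb1-cre WT and 17 in TAT-Cre WT cells. Among all 11663 genes tested, 2991 and 1474 had one. In mb1-cre WT cells 7.97% of genes were called higher and 0.557% lower, and in TAT-Cre WT cells 0.0% were. The difference, TAT-Cre WT minus mb1-cre WT, was called higher for 7 members (1.28% of genes were) and lower for 0 (8.15% were). The 7 were Hoxa9, Hoxa10, Hoxa11, Hoxd9, Hoxd10, Hoxd11 and Hoxd13, from 1.34 to 1.53 on the log2 scale. For Hoxd13, which patterns the digits, the share was 148, 189, 151 and 126 ppm at 0 h and 90.4, 116, 132 and 94.9 ppm at 24 h in mb1-cre WT cells. In TAT-Cre WT cells it was 158, 144 and 122 ppm, then 259, 346 and 245 ppm. The lists grew from 2711 to 6085 peaks at 0 h to 7972 to 15150 at 24 h in the first and went from 3905 to 19074 to 3981 to 5798 in the second. With all lists cut to 1955 peaks 0 members were called, and without the 3 lists under 3000 peaks 31 were. For these 2 fits the share of all genes called is not given here.

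Single libraries decided this count. It fell to 0 without any 1 of mb1-cre WT 0 h replicate 2, mb1-cre WT 24 h replicate 1, TAT-Cre WT 0 h replicates 2 and 3, and TAT-Cre WT 24 h replicate 2, and to 1 without mb1-cre WT 24 h replicate 4. It was 28 without TAT-Cre Xist fl/fl 0 h replicate 2, 22 without TAT-Cre WT 0 h replicate 1, 19 and 16 without mb1-cre Xist fl/fl 0 h replicates 5 and 1, and 13 without mb1-cre WT 24 h replicate 3. It was 2 without mb1-cre WT 0 h replicates 1 or 3 or TAT-Cre WT 24 h replicate 1. It was 3 without mb1-cre Xist fl/fl 0 h replicates 2, 3 or 4, mb1-cre Xist fl/fl 24 h replicate 3 or TAT-Cre WT 24 h replicate 3. It was 4 without mb1-cre Xist fl/fl 24 h replicates 2 or 4. The share of all genes called in these fits is not given here, so no count among them is read as particular to the Hox genes.

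Xist genotype made no difference that passed the test at any Hox gene. The genotype comparison was not simulated, so how often it misses a real difference is unknown, and absence of an effect is not shown. Pooled over the strata that had met Cre, 0 of 38 members were called for H3K27me3 (0.0171% of genes were in each direction) and 0 for H2AK119Ub (0.00483% higher and 0.232% lower), by limma. No member had an unadjusted p under 0.05 in either mark, against 653 of 11663 genes for H3K27me3 and 1160 of 20695 for H2AK119Ub. The exact test of presence, which called 0.0% of genes, could be run for 1 member only, Hoxd1 in H2AK119Ub (6 libraries with a peak against 7, p = 1). The members' median difference, Xist fl/fl minus WT, was -0.14 for H3K27me3 (all genes 0.14) and 0.10 for H2AK119Ub (all genes -0.05). The smallest p values were those of Hoxb4 for H3K27me3 (-0.90 ± 0.571 SE, adjusted p = 0.964) and Hoxc13 for H2AK119Ub (-1.16 ± 0.565 SE, adjusted p = 0.891). In the other direction they were those of Hoxb1 for H3K27me3 (0.00 ± 0.236, adjusted p = 1, of either sign across the alternatives) and Hoxd4 for H2AK119Ub (1.05 ± 0.847, adjusted p = 1).

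In mb1-cre cells at 0 h the Hoxc13 difference was -3.94 (adjusted p = 0.415), where WT libraries gave 392, 159 and 324 ppm and Xist fl/fl libraries 75.5, 72.4 and 0 ppm. At 24 h the values were 154, 148 and 142 ppm against 210, 171 and 239 ppm. With all lists cut to 2004 peaks, Hoxc13 was called lower (-2.84, adjusted p = 0.0255). In the TAT-Cre cells before Cre, 0 members and 0.0% of genes were called in either mark.

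Non-coding genes inside the clusters had the same marks as their neighbours, whose windows they overlap. All 15 examined had H3K27me3 in all 29 libraries, 13 had H2AK119Ub in all 24 and 0 had H3K27ac. Of the 9 tested for H2AK119Ub, 6 were lower at 24 h and 0 higher (5.93% and 38.4% of all genes were). Named by cover, they were Hotair, a HoxC RNA studied for its binding to PRC2 (-0.66 ± 0.225 SE, adjusted p = 0.0199), and the antisense RNAs Hoxa11os (-1.12), Hoxb5os (-0.84) and Hoxd3os1 (-0.73). Hoxd3os1 lies over the 5′ end of Hoxd3 and was lower where the longer Hoxd3 window was higher. The gene table has no strand, so where windows overlap, the same peaks count for an antisense RNA and its Hox partner.

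Genes that flank the clusters were mixed. Of 21 found, 8 had H3K27me3 in all 29 libraries and 6 in none, and 4 were higher and 5 lower in H2AK119Ub among 20 tested (38.4% and 5.93% of all genes were). The homeobox genes Evx1, beside HoxA, and Evx2, beside HoxD, were covered by H3K27me3 like the Hox genes (means of 99.8% and 99.7%). Calcoco2, an autophagy receptor gene beside HoxB, had H2AK119Ub over 34.3% of its window at 0 h and 72.1% at 24 h (log2 change 1.76 ± 0.699 SE, adjusted p = 0.0436). Nfe2, a factor of platelets and red cells near HoxC, had H2AK119Ub over 68.6%, with a change of -0.62 (adjusted p = 0.0448).

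Of the 5 ParaHox genes, the sister group of the Hox clusters, 4 had H3K27me3 in all 29 libraries, and none had H3K27ac. Gsx2 and Pdx1 were covered for 100%, Cdx2 for 99.5% and Gsx1 for 97.0%. Cdx1, chosen after its values were seen, had H2AK119Ub in 5 of 12 libraries at 0 h and 12 of 12 at 24 h, and was the 1 called higher among the 5 (4.12 ± 0.739 SE; 38.4% of all genes were), while Gsx2 was the 1 called lower (5.93% were). Of 9 genes for Hox cofactors, 4 had H3K27me3 in all libraries and 3 in none, and 5 were higher and 2 lower in H2AK119Ub (38.4% and 5.93% of all genes were). The highest mean covered share was 53.5% in H3K27me3 and 36.4% in H2AK119Ub, both for Meis3, and 30.6% in H3K27ac, for Pbx2.

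Of 26 genes for regulators of Hox genes (Polycomb and Trithorax subunits, CTCF and a demethylase), 11 were higher and 2 lower in H2AK119Ub among 23 tested (38.4% and 5.93% of all genes were). Those with the widest H2AK119Ub cover were themselves PRC1 subunit genes: Cbx8 (98.7%), Cbx2 (87.5%), Bmi1 (84.6%) and Pcgf1 (84.1%). In H3K27ac, 10 were called higher and 1 lower among 19 tested, where 46.2% and 7.95% of genes were.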

How the data were processed

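The 38 members and the gene lists were chosen with earlier results of these data known. Tools named in the submitters' processing notes are Trimmomatic 0.32, Bowtie2 2.3.4.1, Picard and deepTools 3.5.1, with the mm10 build. Peak calling was by SEACR (norm, relaxed), judged by the deposited file names; its version and control are not stated in the sources used here. The unit of the deposited values is signal, coverage summed over each peak, in 77 lists with 883735 peaks.

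For each gene (RefSeq, GRCm38.p6, no strand) the window was the body and 2 kb on either side. Peak signal in the window, partial peaks by their share of bases, was divided by the autosomal peak signal of the same list and given per 1000000 (ppm). A peak was present with 1 bp of overlap. Genes that had a peak in 3 or more libraries of a mark entered limma 3.58.1 (lmFit, eBayes with trend) on log2(ppm + 1) with 8 group means; p-values were adjusted by Benjamini-Hochberg over all genes, with a threshold of 0.05. The CpG effect is the mean over 4 strata of system and genotype. The genotype effect is the mean over mb1-cre 0 h, mb1-cre 24 h and TAT-Cre 24 h. The p-values measure the spread between these libraries. On simulated data with log2 changes of 1 and 2, the CpG fit recovered 15% and 45% for H3K27me3 (11663 genes), and 5% and 14% for H2AK119Ub (20695 genes). The changed genes were drawn at random from all genes tested, so these shares are not those of the Hox members.

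Named members had the highest or lowest mean cover of their cluster (ties by signal), were among the 6 smallest p per direction of a pooled comparison, or had the smallest p in a direction; list genes were the 4 with most cover (ties by table order). Others are said to be chosen after their values were seen. Replicate 5 of the H3K27me3 mb1-cre Xist fl/fl group has a title that says naive and a treatment entry that says stimulated; it was kept at 0 h. Same-numbered libraries did not all deviate together. The alternatives were lists cut to the shortest of the mark, the upper 50% by highest signal, no flanks, overlap of 500 bp, pseudocounts of 0.1 and 10 ppm, no filter, percent covered, an exact test of presence, a replicate block, replicate 5 at 24 h, each library left out and, chosen after seeing the data, lists under 3000 peaks left out. One B cell marker is not reported here.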

Additional observations from a re-analysis of the deposited data

Results flagged for a closer look

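The window of Hoxa4 was 0% covered by H3K27me3 in mb1-cre Xist fl/fl 0 h replicate 1, against 100% in the other 4 libraries of the group, a gap larger than Dixon's criterion allows. Chance flags about 1 in 20 groups, and 1 was found among 29 tested. The list of this library held 1955 peaks, the fewest for the mark, and the part of its length was not tested.

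The H3K27me3 change from 0 h to 24 h differed between TAT-Cre WT and mb1-cre WT cells at 7 members by a direct test of the difference. On the log2 scale it was 1.38 for Hoxa9, 1.39 for Hoxa10, 1.35 for Hoxa11, 1.53 for Hoxd9, 1.35 for Hoxd10, 1.34 for Hoxd11 and 1.49 for Hoxd13, higher in the TAT-Cre system, with adjusted p from 0.0281 to 0.0475 by limma. In lists cut to the shortest, 0 members were called. The 24 h cells of the TAT-Cre system had met TAT-Cre as well as CpG, and the part of either cannot be told apart.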

How the results depend on the processing

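The H2AK119Ub count of 32 members changed by CpG became 13 with lists cut to the shortest, 16 without lists under 3000 peaks and 8 in percent covered, where 7 of the 8 were higher. The exact test of presence called 1, but could be run for that member alone. That member, Hoxd1, entered the test only through its libraries at 24 h. Leaving out 1 library gave 30 to 34. In lists cut to the shortest, the H2AK119Ub genotype count was 1 instead of 0 and the mean covered share 88.4% instead of 91.9%. Leaving out 1 library moved that share between 91.6% and 92.3% for H2AK119Ub and between 92.1% and 92.6% for H3K27me3, and gave 0 in every fit for the H3K27me3 CpG effect and both genotype effects of H3K27me3 and H2AK119Ub; no member could be tested for H3K27ac. The H3K27me3 difference between systems, 7 members, became 0 with lists cut to the shortest, without a filter and in percent covered. It became 2 with the upper 50% and without flanks, 18 with replicate 5 at 24 h and 31 without lists under 3000 peaks. With 1 library left out it was 0 to 28. For these counts the share of all genes called is not given here. Among named members, signs changed for Hoxa3 in H2AK119Ub (11.2 percentage points in percent covered; Hoxb3, called lower, was called higher there), for Hoxa4 in H3K27me3 (-0.081 in lists cut to the shortest, -0.12 without lists under 3000 peaks) and for the H3K27me3 genotype difference of Hoxb4 (0.0062 percentage points in percent covered) and Hoxb1 (-0.0096 with the upper 50%, -0.00058 with 0.1 ppm, -0.046 without lists under 3000 peaks, and -0.080 to 0.073 with 1 library left out). Hoxd4 lost its H2AK119Ub call with 0.1 ppm (adjusted p = 0.0525), an overlap of 500 bp (0.0674), no filter (0.0748) and in the fits without 1 library given with its result. The cause was not tested. Depth is unknown, and list length limits how far low cover can be read.

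The replicate block left 32 H2AK119Ub calls for CpG, 0 for H3K27me3 and 0 for genotype. Between times, same-numbered libraries correlated between -0.11 and 0.13 for H3K27me3 and between -0.02 and 0.05 for H2AK119Ub; between genotypes, between -0.34 and 0.35 and between -0.22 and 0.48. Not every pair was positive, so the pairing was taken as one of numbers only. Without a filter and in percent covered many genes have no variance, which makes the limma fit less reliable.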
